A study of Mus musculus with 6 samples.

Results

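The 42 genes described here encode the machinery of autophagy and the lysosome, from the kinase complex that starts autophagosome formation to the proteases that degrade the cargo. They were chosen by name, and each was matched through its Ensembl mouse gene identifier to 1 of the 24016 gene rows deposited. All 42 were found, and all were tested. Expression was measured by RNA-seq in MC3T3-E1 cells, a preosteoblast line from mouse calvaria (1 subclone, labelled WT), after 6 days of differentiation with β-glycerophosphate (10 mM) plus ascorbic acid (50 µg/ml). There were 2 groups of 3 libraries, treated for 24 h with vehicle or with 100 nM corticosterone, the main glucocorticoid of mice. The labels give 10 nM calcitriol, the active form of vitamin D, as present during treatment in both groups. The series describes the libraries of a group as biological replicates. All come from this 1 subclone grown in culture, without other bone cells, and the passage ranges given in the labels and in the study's methods differ.

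Macroautophagy encloses cytoplasm in a double membrane, the autophagosome, which fuses with the lysosome. The ULK1 kinase complex and a class III phosphatidylinositol 3-kinase start the membrane, ATG9 and ATG2 supply it with lipid, and conjugation enzymes attach the small ubiquitin-like ATG8 proteins (LC3 and GABARAP) to it. Cargo receptors tie the cargo to ATG8, and cathepsins digest it in the lysosome, whose genes are controlled in part by the MiT/TFE transcription factors. The kinase mTORC1 restrains the pathway and AMPK promotes it. In bone, autophagy and lysosomes serve matrix secretion and mineralization by osteoblasts as well as resorption by osteoclasts.

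The deposited values, called normalized read counts below, are read counts divided by 1 size factor per library, with no correction for gene length. The libraries held 16020401 to 25638645 reads on genes, and each corticosterone library held fewer than any vehicle library. In vehicle library 2 the level was the highest of the 3 vehicle libraries for 29 of the 42 genes. The same share over all genes was not computed. A fit without this library is given below, and the cause of its higher levels was not tested. The glucocorticoid-induced genes *Fkbp5* (log2 fold change 2.46, SE 0.063, adjusted p = 1.38e-13) and *Tsc22d3* (log2 fold change 1.49, SE 0.065, adjusted p = 9.52e-11) rose, in the direction the treatment labels give. All 9 osteoblast markers were detected, and all 9 fell, although the calls of *Col1a1*, *Alpl* and *Ibsp* were lost in 7, 4 and 1 of the 19 alternative fits. Their summed level was 1387919 to 1437360.0 with vehicle and 1166929 to 1225591 with corticosterone. Most of that sum was *Col1a1* and *Col1a2* (log2 fold changes -0.15 and -0.35). *Runx2*, *Sp7*, *Bglap*, *Ibsp* and *Pth1r*, at far lower levels, each fell by more than 1 on the log2 scale. The part of these markers' shift in the results below was not tested. In RNA from whole cultures, fewer cells of a type and less RNA per cell cannot be told apart. Here and below, fold changes are on the log2(value + 0.1) scale, corticosterone over vehicle, and "rose" and "fell" mean an adjusted p under 0.05 in limma, with Benjamini-Hochberg adjustment over all 24016 genes.

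With corticosterone, 10 of the 42 genes rose and 4 fell, all by less than 1 on the log2 scale. The genes that rose encode lysosomal proteins (*Ctsb*, *Ctsl*, *Ctsd*, *Lamp1* and *Lamp2*), ATG8 proteins (*Map1lc3a* and *Gabarapl1*), suppliers of membrane lipid (*Atg9a* and *Atg2b*) and the conjugation enzyme *Atg7*. Those that fell were the protease gene *Ctsk*, the conjugation enzyme *Atg10*, the ATG8-processing protease *Atg4a* and the kinase *Ulk2*. Fold changes ran from -0.49 for *Atg10* to 0.48 for *Ctsb*. The 10 genes that rose are 23.8% of the set and the 4 that fell are 9.52%, against 8.49% and 8.2% of all genes. Most genes of the whole table had a mean normalized count under 100, whereas 41 of the 42 had a mean of at least 100, and among the 10558 genes at that level 17.1% rose and 15.5% fell. None of the 42 passed the study's threshold, which also asks for an absolute log2 fold change over 1. Of all genes, 1.38% rose and 1.4% fell past it. The median fold change was 0.047 over the set, -0.013 over all genes and -0.0021 over genes with a mean of at least 100.

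**Figure D1:**
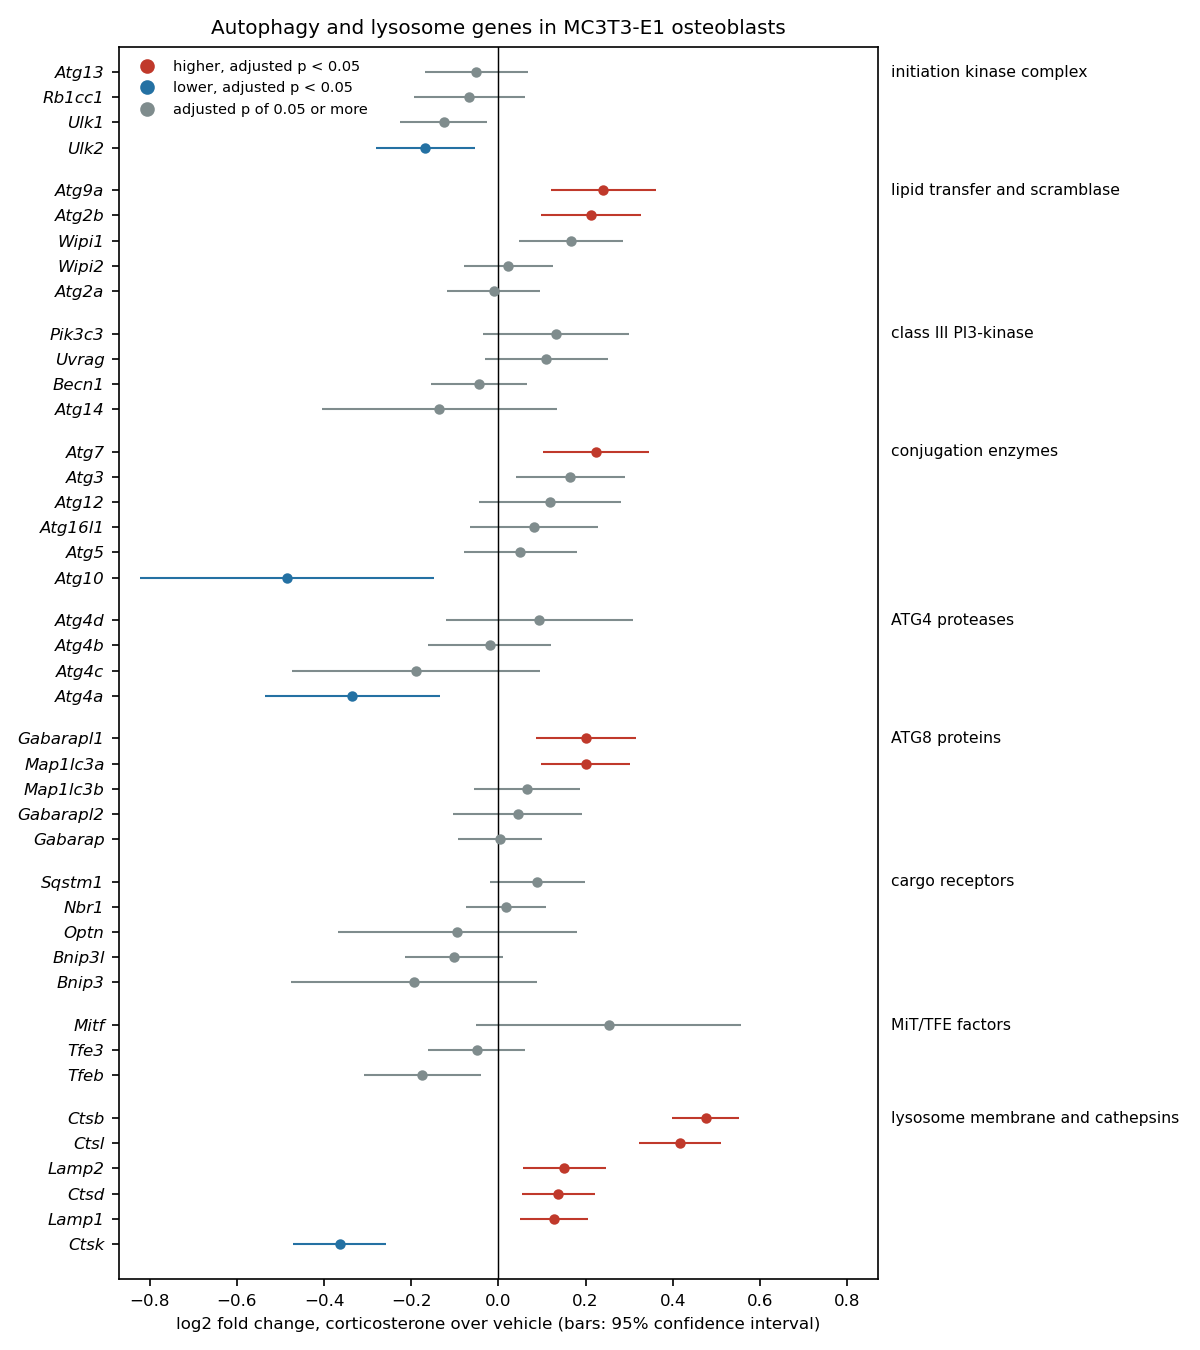
Log2 fold change of each of the 42 genes, corticosterone over vehicle, on the x axis, grouped by role. Points are limma estimates from 3 libraries a group and bars are 95% confidence intervals. Red points (10) rose, blue points (4) fell, and the 28 grey points had an adjusted p of 0.05 or more.

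The corticosterone libraries lay above every vehicle library for 12 of the 42 genes and below for 8, while the groups overlapped for 22. Among all genes with a mean of at least 100, the groups did not overlap in the higher direction for 24.6% and in the lower for 24.4%. For such a gene the two-sided exact permutation test gave p = 0.1, the smallest that 3 against 3 libraries allow. The count of genes that rose changed when 1 library was left out, and so did the calls over all genes. It was 11 without vehicle library 2, 5 without vehicle library 1, and 3 without vehicle library 3. Of all genes, 7.89%, 7.39% and 5.94% rose in these 3 fits, against 8.49% with all 6 libraries. Leaving out corticosterone library 1, 2 or 3 gave 5, 4 and 5 genes that rose, against 6.51%, 6.88% and 6.03% of all genes. Between 1 and 2 of the 42 genes fell in each of these 6 fits, where 4.81% to 6.79% of all genes fell. With libraries scaled to the same total, the split was 6 higher and 6 lower, in place of 10 and 4. Of all genes, 7.09% were then higher and 10.5% lower. Of the 14 calls, those of *Ctsb*, *Ctsl* and *Ctsk* held in all 19 alternative fits, and no call changed direction in any of them.

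**Figure D2:**
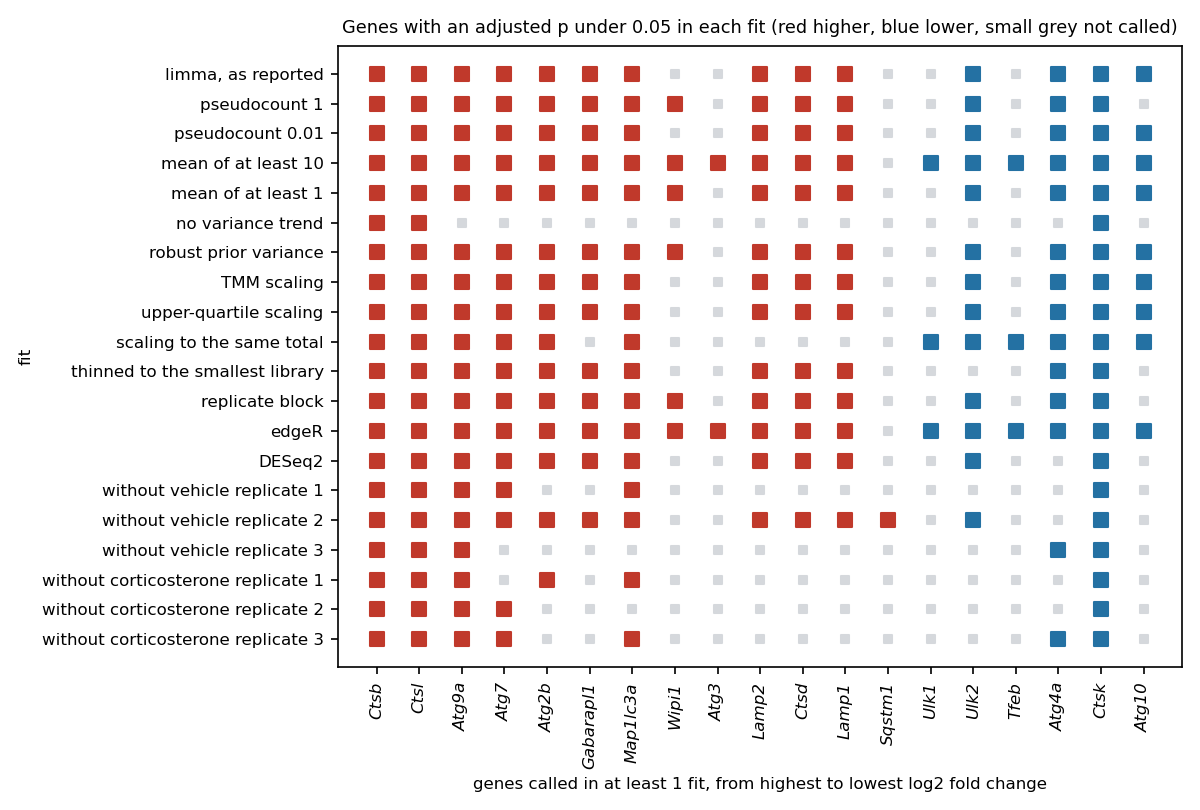
Calls of the 19 genes with an adjusted p under 0.05 in at least 1 fit. Columns are genes and rows are the reported fit and its 19 alternatives, with red for genes that rose and blue for genes that fell. The columns of *Ctsb*, *Ctsl* and *Ctsk* are filled in each row.

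The largest rises were those of the cathepsins B and L. *Ctsb* (chromosome 14, 63122462 to 63145923, plus strand, GRCm38) encodes cathepsin B, a cysteine protease of the lysosome. Its normalized read counts were 12012, 12496 and 12019 with vehicle and 16920.5, 16775 and 17089 with corticosterone. The groups lay far apart compared with their spread, and the mean was 39.0% higher (log2 fold change 0.48, SE 0.036, adjusted p = 6.61e-08). *Ctsl* (chromosome 13, 64359337 to 64370890, minus strand), which encodes the cysteine protease cathepsin L, had counts of 2205, 2259.9 and 2226 with vehicle and 3015, 2864 and 3056 with corticosterone. Each corticosterone library again exceeded each vehicle library, and the mean was 33.5% higher (log2 fold change 0.42, SE 0.044, adjusted p = 2.88e-06). The aspartic protease gene *Ctsd* (chromosome 7, 142375911 to 142388038, minus strand) rose less. Its counts were 8850.0, 9431 and 8762 with vehicle and 9841, 10029.7 and 9854 with corticosterone, where the highest vehicle library came near the lowest corticosterone library (log2 fold change 0.14, SE 0.040, adjusted p = 0.0236).

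*Ctsk* (chromosome 3, 95499256 to 95509362, plus strand) moved the other way. It encodes cathepsin K, a collagen-degrading protease best known from osteoclasts. Its counts were 1786, 1953 and 1817 with vehicle and 1427, 1473 and 1412 with corticosterone, so that all corticosterone libraries lay below the vehicle libraries. The mean fell by 22.4% (log2 fold change -0.36, SE 0.050, adjusted p = 5.31e-05). Of the 10 osteoclast markers listed, 4 (*Dcstamp*, *Ocstamp*, *Atp6v0d2* and *Tnfrsf11a*) had no row in the table, and *Acp5* and *Calcr* had at most 4 and 6 reads in any library. The summed level of the 6 with a row moved with *Ctsk*, from 2851 to 3214 with vehicle to 1139 to 1319 with corticosterone. Most of that sum was *Mmp9*, a matrix protease gene (log2 fold change -1.40, SE 0.063, adjusted p = 1.33e-10). The integrin gene *Itgb3* also fell (log2 fold change -0.62, SE 0.12, adjusted p = 0.00187), while the myeloid receptor gene *Csf1r*, at 15.0 to 30.8, was not called. *Oscar*, with at most 8 reads in any library, had an estimate in the other direction and was not called (log2 fold change 1.97, SE 1.31, adjusted p = 0.392). The part of these genes' shift in the fall of *Ctsk* was not tested.

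The 4 cathepsin genes therefore took different shares of their summed counts. *Ctsb* made up 47.8% to 48.4% of the sum in the vehicle libraries and 53.9% to 54.4% in the corticosterone libraries. *Ctsk* made up 7.18% to 7.47% and 4.50% to 4.73%. The share of *Ctsd*, whose count rose, was 35.3% to 36.1% and then 31.4% to 32.2%. These shares use no length correction and no scaling between libraries.

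**Figure D3:**
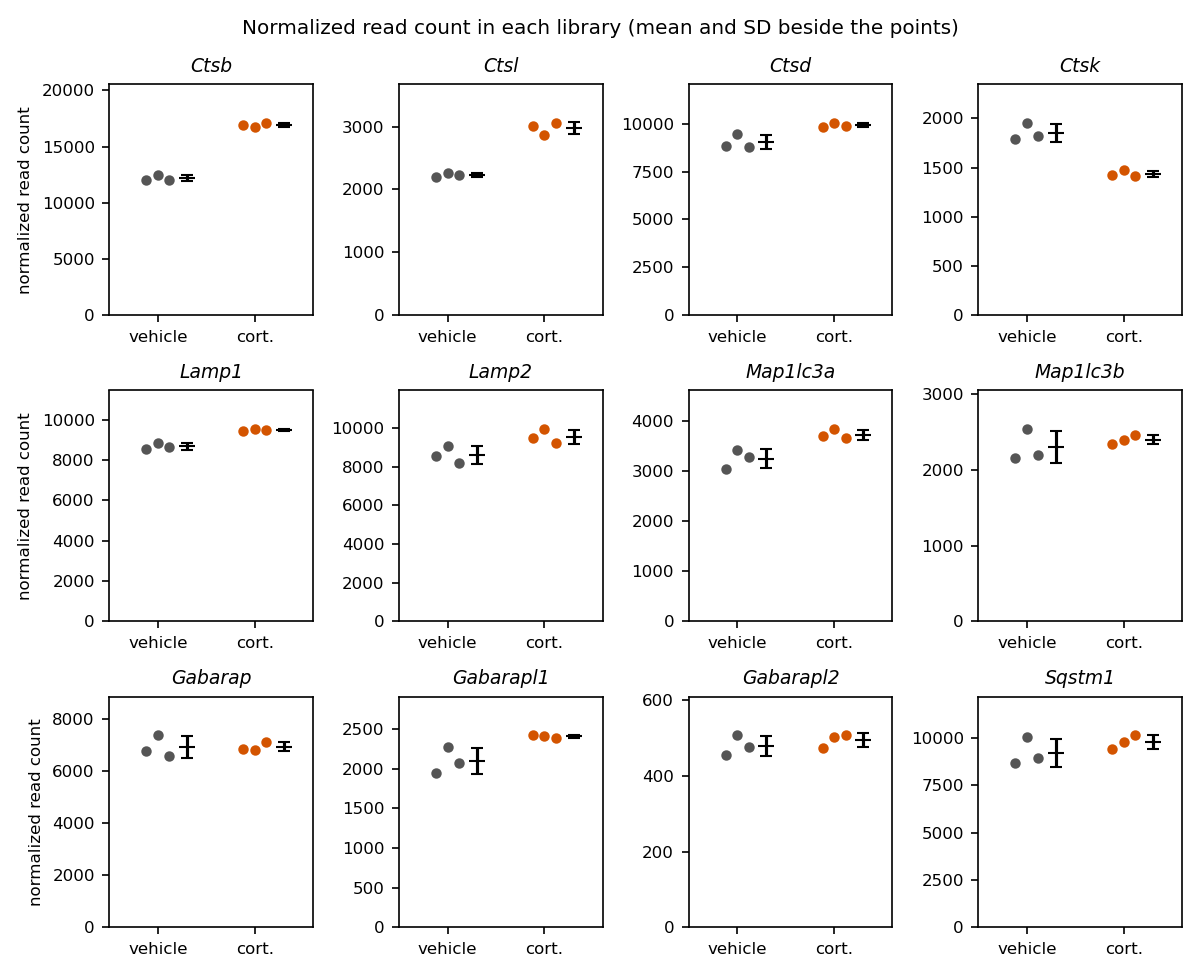
Normalized read count (y axis, from 0) of 12 genes in the 3 vehicle (grey) and 3 corticosterone (orange) libraries, with the mean and SD beside the points. *Ctsb* and *Ctsl* stood clearly higher and *Ctsk* lower with corticosterone, *Lamp1*, *Lamp2*, *Ctsd*, *Map1lc3a* and *Gabarapl1* rose by smaller steps, and the groups overlapped for *Gabarap*, *Gabarapl2*, *Map1lc3b* and *Sqstm1*.

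Both lysosome-associated membrane protein genes rose. LAMP1 and LAMP2 coat the inner face of the lysosomal membrane, and a splice form of LAMP2 takes part in chaperone-mediated autophagy. The counts of *Lamp1* (chromosome 8, 13159161 to 13175338, plus strand) were 8550.0, 8874 and 8640.0 with vehicle and 9431, 9548 and 9500.0 with corticosterone. The step was small but the groups did not overlap (log2 fold change 0.13, SE 0.037, adjusted p = 0.0224). *Lamp2* (chromosome X, 38401357 to 38456454, minus strand) had counts of 8545, 9087 and 8200.4 with vehicle and 9476, 9957 and 9244 with corticosterone, with vehicle library 2 closest to the corticosterone libraries (log2 fold change 0.15, SE 0.045, adjusted p = 0.0271). Thus 5 of the 6 lysosomal genes of the set rose and 1 fell. With scaling to the same total, *Lamp1*, *Lamp2* and *Ctsd* kept their direction but had adjusted p-values of 0.05 or more. The same held in the fit without a variance trend and in each fit that left out 1 library other than vehicle library 2.

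*Lamp1* and *Ctsd* also carry the 6-base E-box CACGTG close to their transcription starts. This palindrome reads the same on both strands and can be bound by MiT/TFE factors and by other bHLH factors. It was searched on both strands in RefSeq promoters of GRCm38.p6, from 250 bases before the start to 50 after it. A promoter was found for 34 of the 42 genes, and 8 of them (23.5%) held the motif, against 10.5% of the promoters of 13405 genes of the table. It stood in 4 of the 8 matched genes that rose (*Lamp1*, *Ctsd*, *Ctsl* and *Atg7*), in 0 of 4 that fell, and in 4 of 22 that were not called (*Atg3*, *Atg5*, *Atg14* and *Bnip3*). *Ctsb* and *Map1lc3a* were among the 8 genes with no matched promoter. The RefSeq starts used for *Atg7* and *Ctsl* lie 9066 and 214 bases from the nearest GENCODE start. A match is a run of letters and not a measured binding site, and a promoter without one lacks these letters in this window only. The stretches around the motif (in capitals) are shown for 2 genes that rose and 2 that were not called, since both kinds hold it. *Lamp1* has 4 copies within 61 bases of its start (chr8:13159080-13159160, plus strand), and *Ctsd* has 1 copy 98 bases before its start (chr7:142387900-142387945, minus strand) and a second further upstream. *Atg3* has 2 copies (chr16:45158715-45158783, plus strand) and *Bnip3* has 1 (chr7:138909589-138909634, minus strand).
Lamp1: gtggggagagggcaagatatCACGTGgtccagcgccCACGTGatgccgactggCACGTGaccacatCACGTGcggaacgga
Ctsd: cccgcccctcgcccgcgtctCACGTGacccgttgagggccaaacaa
Atg3: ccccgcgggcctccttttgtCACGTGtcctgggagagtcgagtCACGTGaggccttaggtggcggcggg
Bnip3: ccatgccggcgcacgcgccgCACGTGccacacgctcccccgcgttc

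Of the 5 ATG8 genes, 2 rose and 3 were not called. *Map1lc3a* (chromosome 2, 155276297 to 155278073, plus strand), which encodes LC3A, had counts of 3042, 3424 and 3289 with vehicle and 3697, 3846 and 3656 with corticosterone. No corticosterone library reached down to the vehicle range, and the mean was 14.8% higher (log2 fold change 0.20, SE 0.048, adjusted p = 0.00725). This call was lost without a variance trend, without vehicle library 3 and without corticosterone library 2. *Gabarapl1* (chromosome 6, 129533160 to 129542346, plus strand), a member of the GABARAP branch, had counts of 1948, 2275 and 2077 with vehicle and 2426, 2409 and 2392 with corticosterone. The corticosterone libraries were nearly equal, whereas the vehicle libraries were spread more widely (log2 fold change 0.20, SE 0.054, adjusted p = 0.015), and its call was lost in the same alternatives as that of *Lamp1*. *Map1lc3b*, which encodes the LC3B protein commonly followed as an autophagosome marker, had counts of 2164, 2542 and 2193 with vehicle and 2338, 2401 and 2461 with corticosterone. Vehicle library 2 exceeded all 3 corticosterone libraries there, and the groups overlapped (log2 fold change 0.065, 95% confidence interval -0.057 to 0.19). *Gabarap* and *Gabarapl2* also overlapped, with intervals of -0.092 to 0.10 and -0.10 to 0.19. Protein lipidation, by which LC3 turnover is usually judged, was not part of these data.

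Among the genes that supply lipid to the growing membrane, *Atg9a* and *Atg2b* rose. *Atg9a* (chromosome 1, 75180860 to 75192196, minus strand) encodes a lipid scramblase carried on vesicles, and its counts were 709, 698 and 727 with vehicle and 854, 823 and 844 with corticosterone. The gap between the groups exceeded the range within either (log2 fold change 0.24, SE 0.056, adjusted p = 0.006), and the call was lost in 1 alternative, the fit without a variance trend. *Atg2b* (chromosome 12, 105616136 to 105685211, minus strand), which encodes a lipid transfer protein, had counts of 971, 1037 and 1024 with vehicle and 1128, 1205 and 1181 with corticosterone (log2 fold change 0.21, SE 0.054, adjusted p = 0.0106), a call lost without a variance trend and without vehicle library 1 or 3 or corticosterone library 2 or 3. Its paralog *Atg2a* was not called, with counts of 1248, 1318 and 1244 with vehicle and 1245, 1289 and 1246 with corticosterone and an interval of -0.12 to 0.096. The difference between the paralogs was not tested. *Wipi1*, one of the genes for the phosphoinositide-binding WIPI proteins, did not overlap between groups but had an adjusted p of 0.0548 (log2 fold change 0.17), and it passed in 6 of the 19 alternatives, edgeR among them. *Wipi2* overlapped, with an interval of -0.080 to 0.13.

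The conjugation enzymes moved in both directions. *Atg7* (chromosome 6, 114643097 to 114860614, plus strand) encodes the E1-like enzyme that activates both ATG12 and ATG8 proteins, and its counts were 717, 736 and 706 with vehicle and 862, 816 and 844 with corticosterone. The groups were clearly apart (log2 fold change 0.22, SE 0.057, adjusted p = 0.0106), although the call was lost without a variance trend, without vehicle library 3 and without corticosterone library 1. *Atg10* (chromosome 13, 90935356 to 91223968, minus strand) encodes the E2-like enzyme for ATG12. Its counts of 111, 88.8 and 94.1 with vehicle and 65.3, 67.4 and 76.8 with corticosterone were the lowest of any gene of the set after treatment, with 60 to 137 reads per library. The mean fell by 28.8%, with a wide interval of -0.82 to -0.15 (adjusted p = 0.0472 in limma). This call was lost in 11 of the 19 alternatives, among them DESeq2 and each fit that left out 1 library. *Atg3*, which encodes the E2-like enzyme for ATG8, had counts of 843, 888 and 822 with vehicle and 903, 969 and 991 with corticosterone. The groups did not overlap, but the adjusted p was 0.0707 in limma. *Atg3* passed as higher in 2 alternatives (a mean of at least 10 and edgeR). *Atg5*, *Atg12* and *Atg16l1*, whose products form the complex that places ATG8 on membranes, all overlapped between groups.

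The ATG4 proteases trim ATG8 precursors and later release ATG8 from lipid. *Atg4a* (chromosome X, 140956907 to 141164270, plus strand) fell by 20.7%, with counts of 246, 239 and 227 with vehicle and 189.5, 180.0 and 194 with corticosterone (log2 fold change -0.33, SE 0.094, adjusted p = 0.0204). The groups did not overlap, but the call was lost in 6 of 19 alternatives, DESeq2 and the fits without vehicle library 1 or 2 or corticosterone library 1 or 2 among them. Of its 31-base stretches, 60.8% also occur in another annotated gene, most in the pseudogene *Atg4a-ps*, so reads could have been divided between both, and its value is uncertain. *Atg4b*, *Atg4c* and *Atg4d* were not called, with intervals of -0.16 to 0.12, -0.47 to 0.097 and -0.12 to 0.31.

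In the initiation kinase complex, *Ulk2* fell and no gene rose. *Ulk2* (chromosome 11, 61775649 to 61855073, minus strand) encodes a kinase related to ULK1, and its counts were 1437, 1436 and 1571 with vehicle and 1268, 1346 and 1341 with corticosterone. All corticosterone values were below the vehicle values, by a small margin (log2 fold change -0.17, SE 0.054, adjusted p = 0.0416). The call was lost in 7 of 19 alternatives, among them each fit that left out 1 library other than vehicle library 2. *Ulk1*, which encodes the main kinase of the complex, showed counts of 2067, 2209 and 2168 with vehicle and 1986, 1905 and 2015 with corticosterone, also without overlap, and an adjusted p of 0.0861, and it passed as lower in 3 alternatives (scaling to the same total, a mean of at least 10 and edgeR). *Rb1cc1* (FIP200) and *Atg13*, which encode subunits of the complex, overlapped between groups. Of the 4 genes of the class III phosphatidylinositol 3-kinase, *Becn1*, *Pik3c3* (VPS34), *Atg14* and *Uvrag*, none was called. *Becn1* had counts of 1009, 1039.6 and 1003 with vehicle and 991, 981 and 985 with corticosterone, which did not overlap although they differed by little (interval -0.15 to 0.065). *Pik3c3* and *Uvrag* had intervals of -0.036 to 0.30 and -0.032 to 0.25, and *Atg14*, with a mean of 202 ± 28.3 with vehicle (SD, n = 3), the wider -0.41 to 0.13.

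None of the 5 cargo receptor genes was called. *Sqstm1*, which encodes p62, a ubiquitin-binding receptor and itself a substrate of autophagy, had counts of 8673, 10028 and 8912 with vehicle and 9387, 9797 and 10152 with corticosterone. Vehicle library 2 lay within the corticosterone range, and the interval was -0.019 to 0.20. *Sqstm1* passed as higher in 1 alternative, the fit without vehicle library 2. *Nbr1* had the narrowest interval of the 5, -0.073 to 0.11. The mitophagy receptor gene *Bnip3*, a known hypoxia target, had the largest spread of the 42 genes among vehicle libraries, a coefficient of variation of 25.7% against a median of 5.07% (3.5% among corticosterone libraries). Its counts were 572, 342 and 436 with vehicle and 409, 353 and 395 with corticosterone, and the interval reached from -0.47 to 0.088. *Bnip3l* (NIX) did not overlap but had an adjusted p of 0.244, and *Optn* overlapped.

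The MiT/TFE factors, which bind E-boxes at lysosomal genes, were not called either. *Tfeb* had counts of 843, 932 and 807 with vehicle and 749, 769 and 765 with corticosterone. All 3 corticosterone values lay below the vehicle values, with an adjusted p of 0.0737 (log2 fold change -0.17), and *Tfeb* passed as lower with scaling to the same total, with a mean of at least 10 and in edgeR. *Tfe3* overlapped, with counts of 1299.8, 1421 and 1405 with vehicle and 1340.5, 1290.0 and 1354 with corticosterone. *Mitf* was low, at 99.7, 113 and 92.1 with vehicle and 119, 138 and 107 with corticosterone, and its interval of -0.052 to 0.56 was the widest upward of the genes not called. These factors act largely through phosphorylation and entry into the nucleus, which RNA levels do not measure.

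Of the 28 genes that were not called, 16 had a 95% confidence interval within 0.25 of 0 in both directions and 27 within 0.5. *Mitf* was the exception. The groups did not overlap for 6 of the 28 (2 higher, 4 lower), and 4 (*Ulk1*, *Wipi1*, *Atg3* and *Tfeb*) had an unadjusted p under 0.05.

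Levels between genes were compared per kilobase of the longest principal transcript in GENCODE. By this measure *Gabarap* was in vehicle libraries the highest of the 42 genes at 5124 ± 309.9 normalized reads per kb (SD, n = 3), followed by *Sqstm1* at 4519 ± 355, *Ctsd* at 4238 ± 171 and *Lamp1* at 3898 ± 75.0. The ranges of *Sqstm1* and *Ctsd* overlapped over the vehicle libraries, and so did those of *Gabarap* and *Sqstm1*. Among ATG8 genes the order was *Gabarap*, *Map1lc3a* (2924 ± 174), *Gabarapl1* (1154 ± 90.7), *Map1lc3b* (908 ± 83.2) and *Gabarapl2* (286 ± 15.9), with no overlap between neighbours. Among cathepsins it was *Ctsd*, *Ctsb* (2567 ± 58.5), *Ctsk* (1225 ± 58.7) and *Ctsl* (362 ± 4.51). *Gabarapl1* and *Ctsl* also have shorter principal transcripts, by which their levels would be 3896 and 1132 per kb, so their places depend on the transcript used. Per kilobase of all annotated exons, *Ctsd* came first at 3834, *Gabarap* next at 3754 and *Sqstm1* ranked 5 at 2743, while the order among ATG8 genes was unchanged. By principal transcript *Mitf* was the lowest at 20.8 ± 2.22. The genes that rose included 5 of the 7 with the highest levels per kb by that measure and *Atg2b*, which ranked 32.

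**Figure D4:**
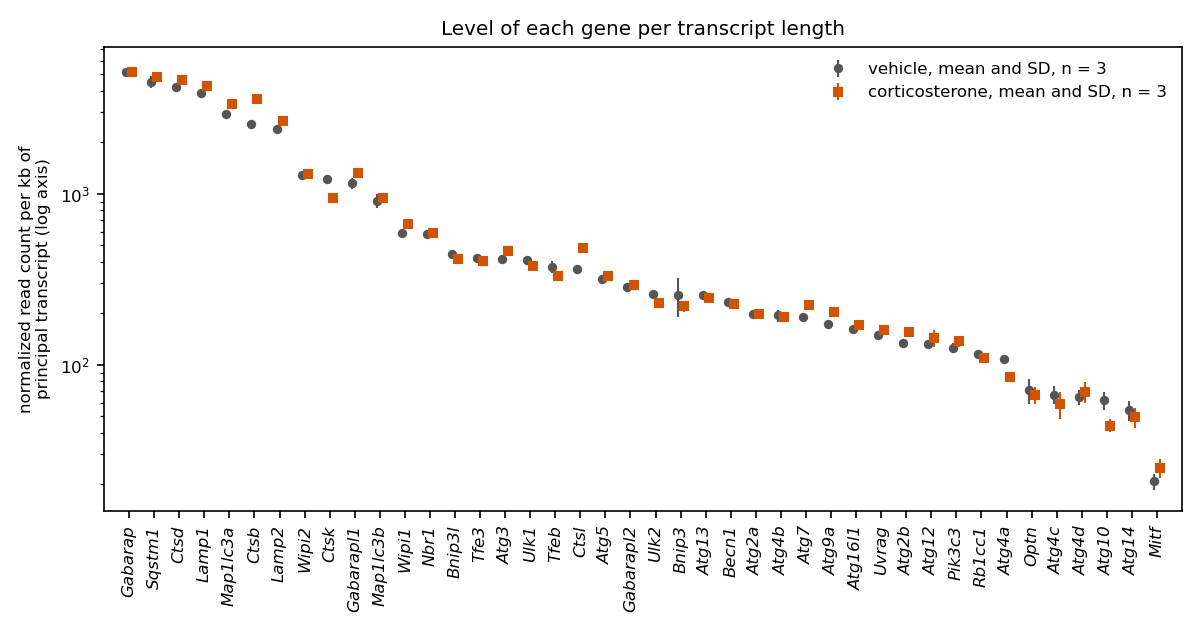
Normalized read count per kb of principal transcript (y axis, log scale) for the 42 genes, ordered by their vehicle mean, in the 3 vehicle and 3 corticosterone libraries. Levels ran from 5124 for *Gabarap* to 20.8 for *Mitf* in vehicle, a wider range than the shift between groups of any gene.

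Some genes of the set share sequence with others, and whether the counting used the strand is not given in the sources used here. Of the 31-base stretches of *Bnip3*, 57% occur in another annotated gene. The share was 40% for *Becn1*, 33.2% for *Ctsd*, 32.4% for *Atg9a*, 28.2% for *Ctsl*, 25.2% for *Gabarapl1* and 13% for *Ctsb*, while *Ctsk* and *Map1lc3a* had 0%. *Ctsd* (808 exon bases, 34.4%), *Atg9a* (1832, 31.8%) and *Ctsl* (395, 6.09%) overlap annotated genes on the same strand that have no row in the table. *Ctsl* also shares 1742 exon bases (26.8%) with *Gm47123* on the opposite strand, which has no row either. *Ctsb* shares 774 exon bases with *Fdft1* on the opposite strand, a gene whose level was 1087 with vehicle and 1061 with corticosterone (log2 fold change -0.029, adjusted p = 0.876 in limma).

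A further 147 genes of autophagy, the lysosome and their control, in 8 lists, were examined beside the 42. Of these, 146 had a row (*Ctsc* did not), and 35 rose and 11 fell, or 24.0% and 7.53%. Of the 146, 138 had a mean of at least 100, the level at which 17.1% of all genes rose and 15.5% fell. Their median fold change was 0.053. The E-box CACGTG stood in the promoters of 31 of the 123 with a RefSeq promoter (25.2%). The largest changes were in genes acting on mTORC1 and in a sorting receptor, *Deptor* and *Sort1*, the 2 of the 146 past the study's threshold.

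In the list of mTORC1 and AMPK control, 4 of 31 genes rose (12.9%) and 3 fell (9.68%). Both shares were below those of all genes with a mean of at least 100, 17.1% and 15.5%, a level that 30 of the 31 reached. *Deptor*, which encodes an inhibitor that binds mTOR, had counts of 477, 379 and 489 with vehicle and 1989, 2081 and 2179 with corticosterone. It rose more than any of the other 145 genes (log2 fold change 2.22, SE 0.081, adjusted p = 1.12e-11). *Ddit4* (REDD1), which encodes a stress- and glucocorticoid-induced inhibitor of mTORC1, had counts of 6535, 6218 and 6210.2 with vehicle and 11849.9, 11620.2 and 13380.2 with corticosterone (log2 fold change 0.96, SE 0.050, adjusted p = 7.21e-10). *Prkaa2*, which encodes a catalytic subunit of AMPK, rose from 159 ± 15.8 to 310.4 ± 10.3 (SD, n = 3), with a log2 fold change of 0.96 (SE 0.10, adjusted p = 2.30e-06). Of the 3 sestrin genes, whose products restrain mTORC1, *Sesn3* and *Sesn2* fell, and *Sesn1* was not called, with groups that overlapped and an adjusted p of 0.365. *Sesn3* had counts of 3805, 4203 and 4019 with vehicle and 2123, 2226 and 2240.1 with corticosterone (log2 fold change -0.87, SE 0.047, adjusted p = 1.23e-09), and *Sesn2* fell less (log2 fold change -0.33, SE 0.062, adjusted p = 0.00103). *Tsc2*, for the tuberin subunit of another mTORC1 inhibitor, fell by 9.04% (adjusted p = 0.0455 in limma). The calls of *Tsc2* and *Sesn2* were lost in 8 and 1 of 19 alternatives.

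Of the 19 other core autophagy and fusion genes, 6 rose (31.6%) and 0 fell, against the same 17.1% and 15.5%. The largest rises were those of *Atg16l2*, a paralog of *Atg16l1*, from 555 ± 28.7 to 914 ± 12.8 (SD, n = 3), with a log2 fold change of 0.72 (SE 0.061, adjusted p = 2.08e-07), the ULK-related kinase gene *Ulk3* (log2 fold change 0.45) and the WIPI-related gene *Wdr45* (log2 fold change 0.45). The calls of *Wdr45* and *Ulk3* were lost in 3 and 1 of 19 alternatives. Among 18 other selective autophagy genes, the cargo receptor *Tax1bp1* (log2 fold change 0.41, SE 0.044, adjusted p = 3.78e-06) and the ER-phagy receptor *Retreg1* (log2 fold change 0.37, SE 0.055, adjusted p = 1.03e-04) rose, or 11.1% of the list. *Tollip* fell by 12.8% (5.56% of the list), a call lost in 5 of 19 alternatives. The other 15 were not called, as were all 5 receptors of the main set.

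Of 38 other lysosomal hydrolases and cofactors, 11 rose (28.9%) and 2 fell (5.26%), against 17.1% and 15.5% of all genes with a mean of at least 100. The cysteine protease gene *Ctsh* had counts of 399.8, 475 and 411 with vehicle and 682, 609.7 and 651 with corticosterone (log2 fold change 0.60, SE 0.077, adjusted p = 2.68e-05). *Lgmn*, which encodes the asparaginyl protease that processes cathepsins, rose from 618 ± 50.6 to 871 ± 26.4 (SD, n = 3), with a log2 fold change of 0.50 (SE 0.067, adjusted p = 3.98e-05), and the sialidase gene *Neu1* rose by 33.0%. *Gm2a*, which encodes the ganglioside activator protein, fell from 140.2 ± 15.1 to 73.0 ± 6.35 (SD, n = 3), with a log2 fold change of -0.94 (SE 0.14, adjusted p = 1.61e-04), and the β-galactosidase gene *Glb1* fell by 12.9%. The calls of *Glb1* and *Neu1* were lost in 7 and 2 of 19 alternatives. Of 14 other lysosomal membrane genes, 5 rose (35.7%) and 2 fell (14.3%). The channel gene *Tpcn2* (log2 fold change 0.54, SE 0.055, adjusted p = 1.65e-06), the cholesterol exporter *Npc1* (log2 fold change 0.50, SE 0.056, adjusted p = 5.33e-06) and the channel gene *Tmem175* (log2 fold change 0.45) rose the most, and *Scarb2*, the receptor that carries glucocerebrosidase, fell by 13.3%. The calls of *Tmem175* and *Scarb2* were each lost in 1 of 19 alternatives. Of 16 V-ATPase genes, whose products acidify the lysosome, 2 rose and 2 fell, or 12.5% each, below the shares of all genes with a mean of at least 100. *Atp6v0e* had a log2 fold change of 0.17, *Atp6v1d* of -0.16 and *Atp6v0a1* of -0.15, with calls lost in 8, 11 and 8 of 19 alternatives.

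Of 7 genes of mannose 6-phosphate sorting, by which cathepsins reach the lysosome, 3 rose (42.9%) and 1 fell (14.3%). Among all genes with a mean of at least 100, a level that all 7 reached, 17.1% rose and 15.5% fell. *Gnptg*, *Nagpa* and *Sumf1* were not called. *Gnptab*, which encodes the enzyme that starts the mannose 6-phosphate tag, rose (log2 fold change 0.21, SE 0.049, adjusted p = 0.006). Both receptors for the tag, *Igf2r* (log2 fold change 0.15) and *M6pr* (0.18), rose as well. The calls of *M6pr*, *Igf2r* and *Gnptab* were lost in 8, 2 and 1 of 19 alternatives. *Sort1*, which encodes sortilin, a sorting receptor that does not need the tag, had counts of 391.7, 450.0 and 427 with vehicle and 209, 192 and 202 with corticosterone. All 3 corticosterone values were below its lowest vehicle value (log2 fold change -1.07, SE 0.086, adjusted p = 1.20e-07). Of the 3 cathepsin inhibitor genes listed, 2 rose (66.7%) and 0 fell, against the same 17.1% and 15.5%. The remaining gene, *Cst6*, had a mean of only 8.97 and an estimate in the other direction, and was not called (log2 fold change -0.71). *Cst3*, which encodes the secreted inhibitor cystatin C, had counts of 4161, 4778 and 4295 with vehicle and 8132, 8042 and 8597 with corticosterone, and the mean was 87.2% higher (log2 fold change 0.91, SE 0.050, adjusted p = 1.47e-09). The intracellular inhibitor gene *Cstb* rose by 29.4% (log2 fold change 0.37, SE 0.047, adjusted p = 1.93e-05). Among the 30 genes named from the 8 lists, 15 kept their call in all 19 alternatives, among them *Deptor*, *Ddit4*, *Prkaa2*, *Sesn3*, *Sort1*, *Cst3*, *Cstb*, *Ctsh*, *Lgmn*, *Gm2a*, *Tpcn2* and *Npc1*.

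**Figure D5:**
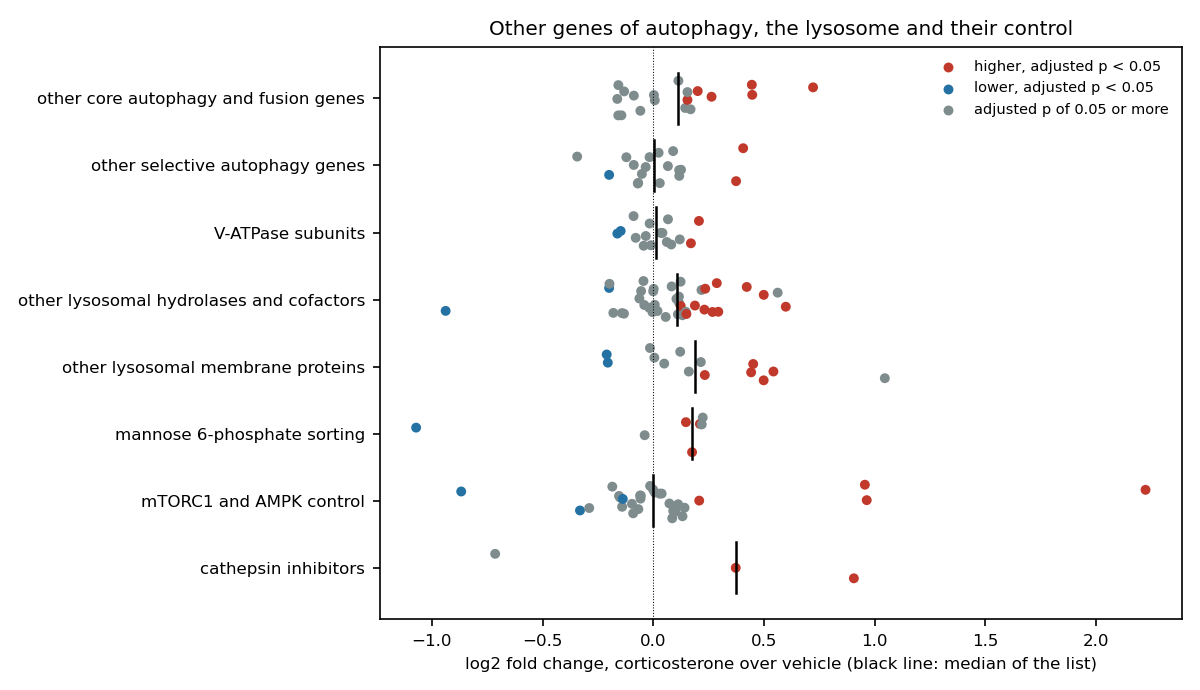
Log2 fold change (x axis, corticosterone over vehicle) of 146 further genes in 8 lists (y axis). Each point is 1 gene, coloured by whether it rose, fell or was not called, and the black line is the median of the list. *Deptor* at 2.22 and *Sort1* at -1.07 lie beyond 1 on the log2 scale, as does a lysosomal membrane gene at 1.05 that was not called.

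Markers of macrophages and adipocytes were detected in part. Of 7 macrophage markers, *Ptprc*, *Adgre1*, *Itgam* and *Tyrobp* had no row. The summed level of the 3 with a row was 310.3 to 357 with vehicle and 264 to 312 with corticosterone. *Lyz2* fell (log2 fold change -0.37, SE 0.10, adjusted p = 0.0195), a call lost in 7 of 19 alternatives, DESeq2 among them. *Cd14*, with 76 to 127 reads per library, was not called (log2 fold change 0.071, SE 0.16, adjusted p = 0.837), and neither was *Csf1r*. Of 6 adipocyte markers, *Adipoq*, *Pparg*, *Cidec* and *Lep* had no row and *Plin1* had at most 2 reads. Their summed level was 7.72 to 21.1 with vehicle and 108 to 133 with corticosterone. *Fabp4* rose, from 14.8 ± 6.71 to 121 ± 11.5 (SD, n = 3), with a log2 fold change of 3.14 (SE 0.31, adjusted p = 1.33e-06), in the direction of *Ctsb* and *Ctsl*, and its part in their change was not tested.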

How the data were processed

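RNA of 3 vehicle-treated and 3 corticosterone-treated MC3T3-E1 cultures was made into NEBNext Ultra libraries and sequenced commercially on an Illumina platform. Per the submitters' processing notes the genome build was mm10. The aligner, counting program, annotation and strand setting are not given in the sources used here. Differential expression was called by the authors in DESeq2.

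The authors deposited a signal per gene and library, named FPKM. Within each library 100% of the values were whole multiples of 1 step (tolerance 0.01), whatever the gene's length, so that they are read counts divided by 1 size factor. Depth was 16020401 to 25638645 reads per library. A count of 3 reads corresponds to a normalized count of 2.32 to 3.84, which limits counting precision only. No 2 libraries of a group agreed within sampling noise.

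Values were transformed to log2(value + 0.1) and compared between groups by limma 3.58.1 (R 4.3.3), using moderated variances that follow the mean level. A minimum mean of 0.1 removed no gene. P-values were adjusted by the Benjamini-Hochberg method over 24016 genes. They weigh the difference between groups against the spread among these libraries, moderated toward the trend over all genes. The 42 genes, the related lists and the marker lists were chosen with earlier results of these data known. Named beside the 42 were *Fkbp5* and *Tsc22d3*, markers by list, and, per related list and direction, up to 3 genes with the largest fold change among those with an adjusted p under 0.05, a mean of at least 10 and groups that did not overlap. *Fdft1* was named for its overlap with *Ctsb*. Alternatives were pseudocounts of 1 and 0.01, means of at least 10 and 1, no variance trend, a robust prior variance, TMM, upper-quartile and same-total scaling, thinning of the recovered reads to the smallest library, the replicate number as a block, edgeR 4.0.16 (quasi-likelihood) and DESeq2 1.42.0 on recovered reads, and leaving out each library. Only the reported limma fit, edgeR and DESeq2 were run on simulated counts. The changes planted there were larger than any fold change of the 42 genes, so recovery of changes this small was not tested. Symbols, coordinates and lengths came from GENCODE for GRCm38 (mm10), which matched 23983 of the identifiers, and promoters from RefSeq. Python 3.11.15, pandas 2.3.3 and matplotlib 3.10.9 were used.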

Additional observations from a re-analysis of the deposited data

How the results depend on the processing

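No gene of the 42 passed an absolute log2 fold change of 1 in any of the 19 alternatives, and none that was called changed direction. The share of all genes called also moved with the fit, from 8.49% higher and 8.2% lower in the reported one. Without a variance trend, 2 of the 42 genes rose and 1 fell, and 14 of the related genes rose and 3 fell. Of all genes, 3.64% rose and 3.16% fell in that fit. With scaling to the same total, 6 of the 42 rose and 18 related genes fell, while 7.09% of all genes rose and 10.5% fell. After thinning to the smallest library, 2 of the 42 and 7 related genes fell, and in DESeq2 2 of the 42 fell. In these 2 fits 6.96% and 7.20% of all genes fell. Leaving out 1 library at a time gave 3 to 11 genes that rose and 1 to 2 that fell, and 23 to 37 related genes that rose and 5 to 8 that fell (8 without corticosterone library 3, 7 without vehicle library 1, 6 without vehicle library 3 and 5 without each of the others). Over all genes, 5.94% to 7.89% rose and 4.81% to 6.79% fell in those 6 fits. edgeR called 12 of the 42 genes higher and 6 lower, against 16.0% and 15.2% of the 13871 genes it kept. Group labels share the replicate numbers 1 to 3, but libraries of the same number had correlations of only 0.067, 0.088 and 0.016 in their deviations over 10558 genes, so the numbers were not taken as pairs. The causes of these shifts were not tested. With the replicate block, 11 of the 42 genes rose and 3 fell, against 8.38% and 7.88% of all genes. In this fit 35 related genes rose and 10 fell. It lost *Atg10* and gained *Wipi1*, and corticosterone library 3 correlated best with vehicle library 1. A depth of 60 to 137 reads limits the precision for *Atg10*. The design holds 1 subclone, 1 dose and 1 time point.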
